A study of Homo sapiens with 12 samples.

Results

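The genes described here are 32 components of the postsynaptic density, the protein mesh that lies under the membrane of the receiving side of an excitatory synapse. They were chosen by name as scaffolds (the DLG, DLGAP, SHANK and HOMER families, and gephyrin of inhibitory synapses), as Ca2+/calmodulin-dependent protein kinase II (CaM kinase II) and its surroundings, and as regulators of small GTPases and actin in dendritic spines. Earlier results of these data were known when the list was made. All 32 symbols were found among the 59653 of the deposited count table, and all 32 were abundant enough to be tested. Total RNA was sequenced from human neurons that had been grown from IMR-90 stem cells; IMR-90 is an established fetal lung fibroblast line, here reprogrammed to induced pluripotency. A negative control siRNA was used for 6 libraries (siNC), and the other 6 (siZCC) received an siRNA that targets ZCCHC17, a zinc knuckle protein that binds RNA and that the series title links to neuronal splicing. The labels do not give the age of the cultures, the time after siRNA or whether replicates were separate cultures, so p-values measure the spread between these libraries only. The sample titles also carry the letters NPC, whose meaning they do not give.

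In the postsynaptic density, DLG proteins hold glutamate receptors and ion channels through their PDZ domains. DLGAP proteins link DLG proteins to SHANK proteins, and HOMER proteins tie SHANK proteins to metabotropic receptors and calcium stores. CaM kinase II is the abundant calcium-driven kinase of this layer, and guanine nucleotide exchange factors and GTPase-activating proteins for Arf, Rac, Ras and Rap set spine shape and receptor traffic. Many of these proteins are made as several splice forms, which counts per gene do not resolve.

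Some facts of the whole series bear on every value. Totals ran from 90755953 to 120023356 counts in siNC and from 76115083 to 105389055 in siZCC, and the lowest count of any member in any library was 433. The siRNA target stood at 54.0 to 61.0 CPM (counts scaled to a common library size) in siNC and 9.37 to 10.6 CPM in siZCC, leaving 17.6% of its control level. Libraries of each group also fell into 3 with 5.23 to 16.0 CPM of IL1B and 3 with 0.0223 to 0.1 CPM, a division the labels do not give. Transcripts of neurons, of progenitors, of astroglia and of dividing cells were all present. The summed CPM of 18 neuron markers was 3872.5 to 4421.9 in siNC and 3522.9 to 4059.2 in siZCC, and that of 10 neural progenitor markers 6230.6 to 6653.7 and 6266.8 to 6821.7. In RNA from a mixed culture, fewer cells of a type and less RNA per cell cannot be told apart.

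Paralogs in these families could share reads, so the longest run of bases that any pair of family members has in common was measured in their transcripts (GENCODE v29, GRCh38). Over 26 pairs it was 15 to 36 bases. The runs of 6 pairs are shown, because how far paralogs can be told apart bears on the results within the CAMK2, DLG, DLGAP and SHANK families, and all 6 lie in coding sequence. The longest run, of DLGAP2 and DLGAP3, is given by its length of 36 bases only. They are given in lower case throughout because no part of them is singled out.
CAMK2A and CAMK2B: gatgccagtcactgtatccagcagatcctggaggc
CAMK2D and CAMK2G: cacagggacctgaagcctgagaa
DLG1 and DLG2: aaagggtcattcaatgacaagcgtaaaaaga
SHANK2 and SHANK3: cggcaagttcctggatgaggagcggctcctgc
SHANK1 and SHANK3: gggagacttcctcatcgaggtgaacggg
DLGAP1 and DLGAP3: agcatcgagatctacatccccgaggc
The read length is not given in the sources used here. A read longer than the run its pair shares cannot match both genes exactly.

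The comparison asked which of these genes differ between siZCC and siNC. Of the 32, 11 rose and 2 fell (40.6% called). A call means that edgeR's quasi-likelihood test gave an adjusted p below 0.05 after Benjamini-Hochberg adjustment over all genes kept. Of all 24671 genes kept, 22.2% were called, 11.4% higher and 10.8% lower. Genes with more counts were called more often: among the 12245 whose mean CPM reached 6.01, that of the lowest member, 32% were called, 17.0% higher and 15% lower. The difference between those shares and that of the members was not tested, and the members were chosen with earlier results of these data known. The ranges of both groups stayed apart in 7 members (5 higher, 2 lower), against 9.74% of all genes kept and 15.2% of those 12245; 6 of the 7 were also called, against 9.53% and 14.9%. The median log2 fold change was 0.04 over the 32 members and -0.002 over all genes. The rises were modest: the largest was that of DLGAP2 at 1.5-fold, followed by LRRC7 at 1.26-fold and CAMK2G at 1.19-fold. The split by direction depended on the processing. When each library was adjusted for GC content and exon length, 13 members were again called, but 7 higher and 6 lower. Over all genes that adjustment also gave more calls, of which 46.8% were higher, against 51.4% without it. The share of all genes called in that fit was not computed. Counts of calls with the adjustment, here and below, therefore cannot be set against the 22.2% or 32% above.

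**Figure D1:**
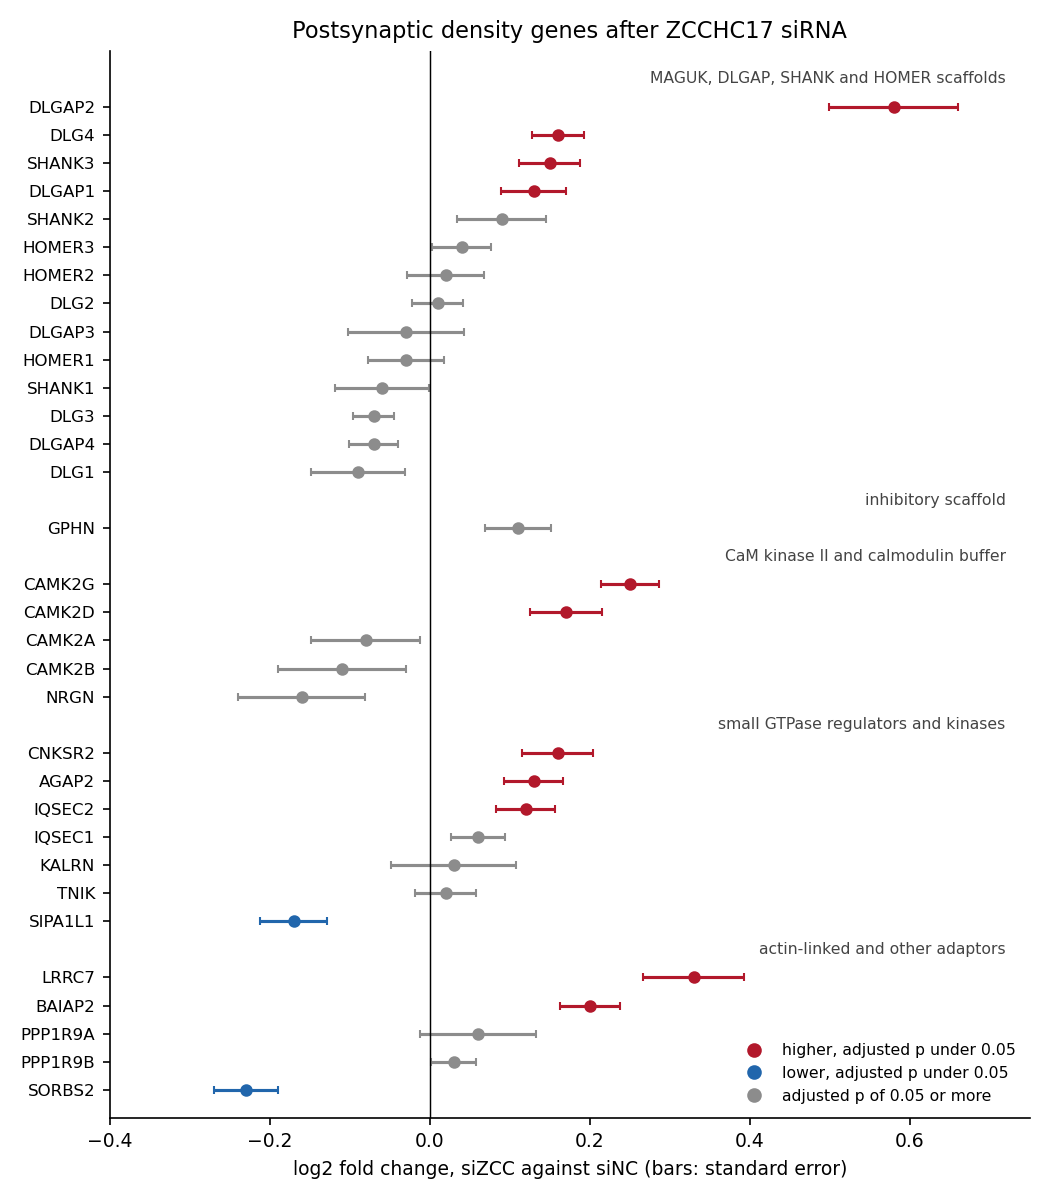
Log2 fold change of each of the 32 genes, siZCC against siNC, by role, with standard errors as bars. DLGAP2 lies farthest to the right at 0.58 and SORBS2 farthest to the left at -0.23; most other genes lie within 0.2 of 0.

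Among the 14 scaffolds of the DLG, DLGAP, SHANK and HOMER families, 4 rose and 0 fell in edgeR's test; the GC and length adjustment gave 2 higher and 3 lower, and DESeq2's Wald test 4 and 1. DLG3 and DLGAP4 had an unadjusted p under 0.05 in the lower direction (0.0203 and 0.0405). DLGAP2, a linker between DLG and SHANK proteins (chromosome 8, 737596 to 1708474, plus strand, GENCODE v29), had the lowest CPM of the members and the largest change. Its siNC libraries had a lowest value of 3.83, a median of 4.68 and a highest value of 5.87 CPM, against 6.91, 7.23 and 7.58 in siZCC. All 6 siZCC libraries lay above every siNC library. Its log2 fold change was 0.58 (SE 0.0805, adjusted p 8.36e-05), and a two-sided exact permutation test of log2 CPM reached p = 0.00216, the lowest possible with these group sizes. It was the 1 member that passed when a change of more than 1.2-fold was required.

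DLG4 encodes PSD-95, the best known MAGUK scaffold of excitatory synapses, and its mean level in siNC was 16.7 CPM per kb of exon against 0.317 for DLGAP2. Its siNC values were 160.8, 172.7 and 183.1 CPM (lowest, median, highest) and its siZCC values 183.4, 192.5 and 198.1 CPM. The groups just failed to overlap, and the log2 fold change was 0.16 (SE 0.0327, adjusted p 0.00264; exact permutation p = 0.00216). SHANK3, a master scaffold linked to autism and to Phelan-McDermid syndrome, went from 70.6, 77.7 and 80.9 CPM to 78.5, 87.1 and 90.1 CPM. Here 5 of 6 siZCC libraries exceeded all siNC libraries, siZCC replicate 6 being the exception, and the log2 fold change was 0.15 (SE 0.0382, adjusted p 0.00775). DLGAP1 went from 34.7, 38.7 and 41.4 CPM to 39.8, 42.1 and 43.2 CPM, with 4 siZCC libraries above every siNC library. Its call (log2 fold change 0.13, SE 0.0404, adjusted p 0.033) was the least secure. Omitting any 1 of 7 libraries ended it (siNC replicates 1, 3 and 4, siZCC replicates 1, 2, 4 and 5), with adjusted p from 0.0596 to 0.0771.

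The calls of SHANK3 and DLGAP1 were also lost with the GC and length adjustment (log2 fold changes 0.08 and 0.08, adjusted p 0.0522 and 0.0612). Those of DLGAP2 (0.54, adjusted p 4.28e-05) and DLG4 (0.12, adjusted p 0.00379) were kept. SHANK1 and DLGAP4, not called before, were called lower with it. Their log2 fold changes went from -0.06 and -0.07 to -0.15 and -0.12, with adjusted p of 0.0221 and 0.00231. DLG3, a MAGUK scaffold encoded on the X chromosome, had a very small difference that nevertheless separated the groups fully. Its siNC values were 59.4, 60.2 and 63.6 CPM and its siZCC values 56.6, 58.1 and 58.8 CPM. The log2 fold change of -0.07 (SE 0.0255) had an adjusted p of 0.0768. The exact permutation test gave p = 0.00216, which is unadjusted and follows from the full separation. DLG3 passed the threshold with upper quartile scaling (0.0493), with DESeq2's Wald test (0.0411), after thinning all libraries to the smallest total (0.0421) and with the GC and length adjustment (0.00809).

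**Figure D2:**
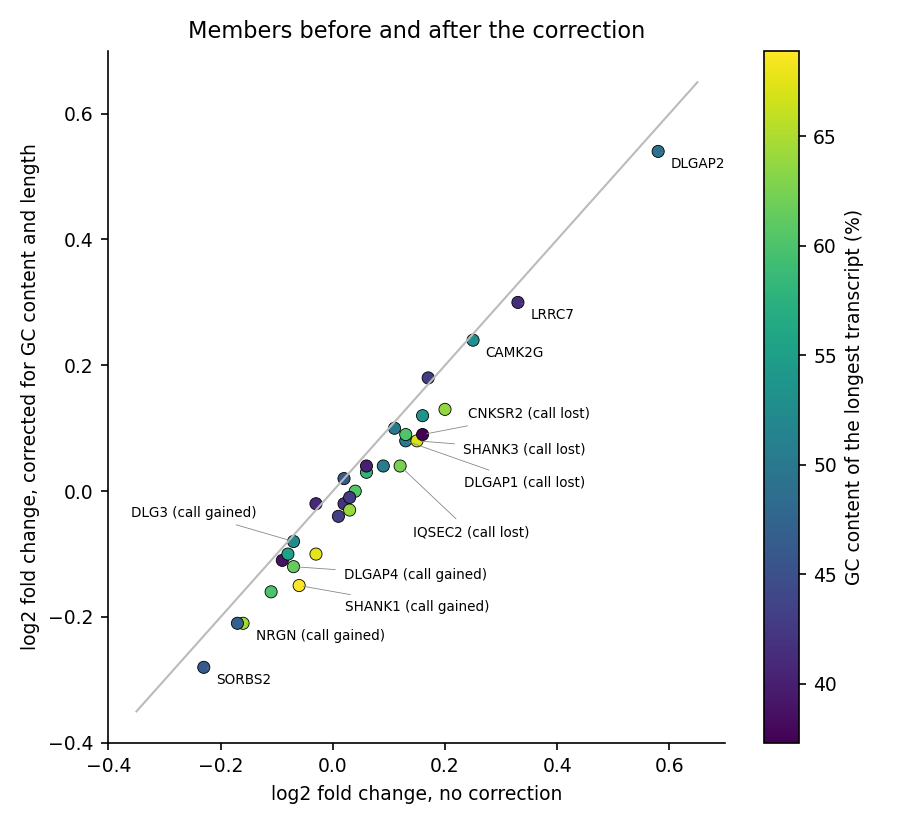
Log2 fold change of each of the 32 genes without (horizontal) and with (vertical) the GC and length adjustment, coloured by GC content. Most points lie below the grey line of equal values; the adjustment ended the calls of SHANK3, DLGAP1, IQSEC2 and CNKSR2 and added DLG3, DLGAP4, SHANK1 and NRGN on the lower side.

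The other scaffolds did not pass. DLG1, a scaffold also of epithelial junctions, had 72.5 to 91.4 CPM in siZCC against 80.7 to 95.8 in siNC, and DLG2 27.5 to 29.5 against 26.6 to 29.3. DLGAP3 had the lowest CPM of those not called, 12.9 to 16.0 in siNC and 12 to 16.1 in siZCC. SHANK2 had a log2 fold change of 0.09 (SE 0.0557, adjusted p 0.253). The 3 HOMER genes had log2 fold changes between -0.03 and 0.04 with standard errors of 0.0372 to 0.0484. HOMER1, whose short activity-induced form uncouples the long ones, measured 20.1 ± 1.44 CPM in siNC and 19.7 ± 0.969 in siZCC (SD, n = 6 each). Exons of HOMER3 overlap a gene on the same strand, AC002985.1, over 12.3% of their length (0 to 1 counts per library) and an antisense gene, HOMER3-AS1, over 8.8%. How the counting treated strand and overlapping genes is not given. HOMER3-AS1 itself had 1.61 CPM in siNC and 2.2 in siZCC, against 28.3 and 29.2 for HOMER3.

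Gephyrin (GPHN), the scaffold that anchors glycine and GABA-A receptors at inhibitory synapses, ranged from 50.1 to 57.8 CPM in siNC with a median of 52.3, and from 54.2 to 60.7 in siZCC with a median of 57.1. Its log2 fold change of 0.11 (SE 0.0411) had an adjusted p of 0.0755. The groups overlapped, with 2 siZCC libraries above all siNC libraries. It passed when siNC replicate 2 or siNC replicate 5 was left out (adjusted p 0.0288 and 0.0369).

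CaM kinase II is a ring of subunits made from 4 genes, of which 2 rose and 0 fell. NRGN, grouped with them, was not called. With NRGN 40.0% of this group was called, against 32% of all genes whose mean CPM reached 6.01, a difference that was not tested. CAMK2A and CAMK2B are the forms typical of mature forebrain neurons, and CAMK2D and CAMK2G are expressed in many tissues. CAMK2G (chromosome 10, 73812501 to 73874591, minus strand) rose from 123.5, 136.9 and 140.1 CPM to 151.8, 161.7 and 174.8 CPM. All 6 siZCC libraries exceeded all siNC libraries (log2 fold change 0.25, SE 0.0364, adjusted p 0.000121; exact permutation p = 0.00216). CAMK2D rose from 161.8, 173.2 and 181.2 CPM to 173.6, 199.3 and 208.1 CPM, a log2 fold change of 0.17 (SE 0.045, adjusted p 0.0111). In CAMK2D the groups overlapped, since siZCC replicates 4 and 5 stayed within the siNC range. Those are libraries with high IL1B, but so is siZCC replicate 1, whose 196.8 CPM lay above every siNC library. On the high IL1B side of the division the log2 fold change was 0.08 (SE 0.0551, adjusted p 0.418, 3 libraries against 3). On the other it was 0.26 (SE 0.0455, adjusted p 0.0092). The difference between the sides was not tested.

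The forms typical of forebrain neurons were not called. CAMK2A had 14, 15.1 and 18.2 CPM in siNC and 13.1, 14.5 and 16.7 in siZCC (log2 fold change -0.08, SE 0.068, adjusted p 0.464). CAMK2B had 23.1, 27.0 and 31.6 against 21.7, 25.8 and 29.5 CPM (-0.11, SE 0.0799, adjusted p 0.364). NRGN encodes neurogranin, a small protein that holds calmodulin away from the kinase at low calcium. It measured 19.4, 23.2 and 24.8 CPM in siNC and 17.8, 19.4 and 23.7 CPM in siZCC, with a log2 fold change of -0.16 (SE 0.0792, adjusted p 0.176). With the GC and length adjustment its log2 fold change was -0.21 and its adjusted p 0.0274. These 3 genes varied more between replicates than the widely expressed forms. Their coefficients of variation were 9.12% to 12.7% in the 2 groups, against 4.51% to 7.46% for CAMK2D and CAMK2G.

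**Figure D3:**
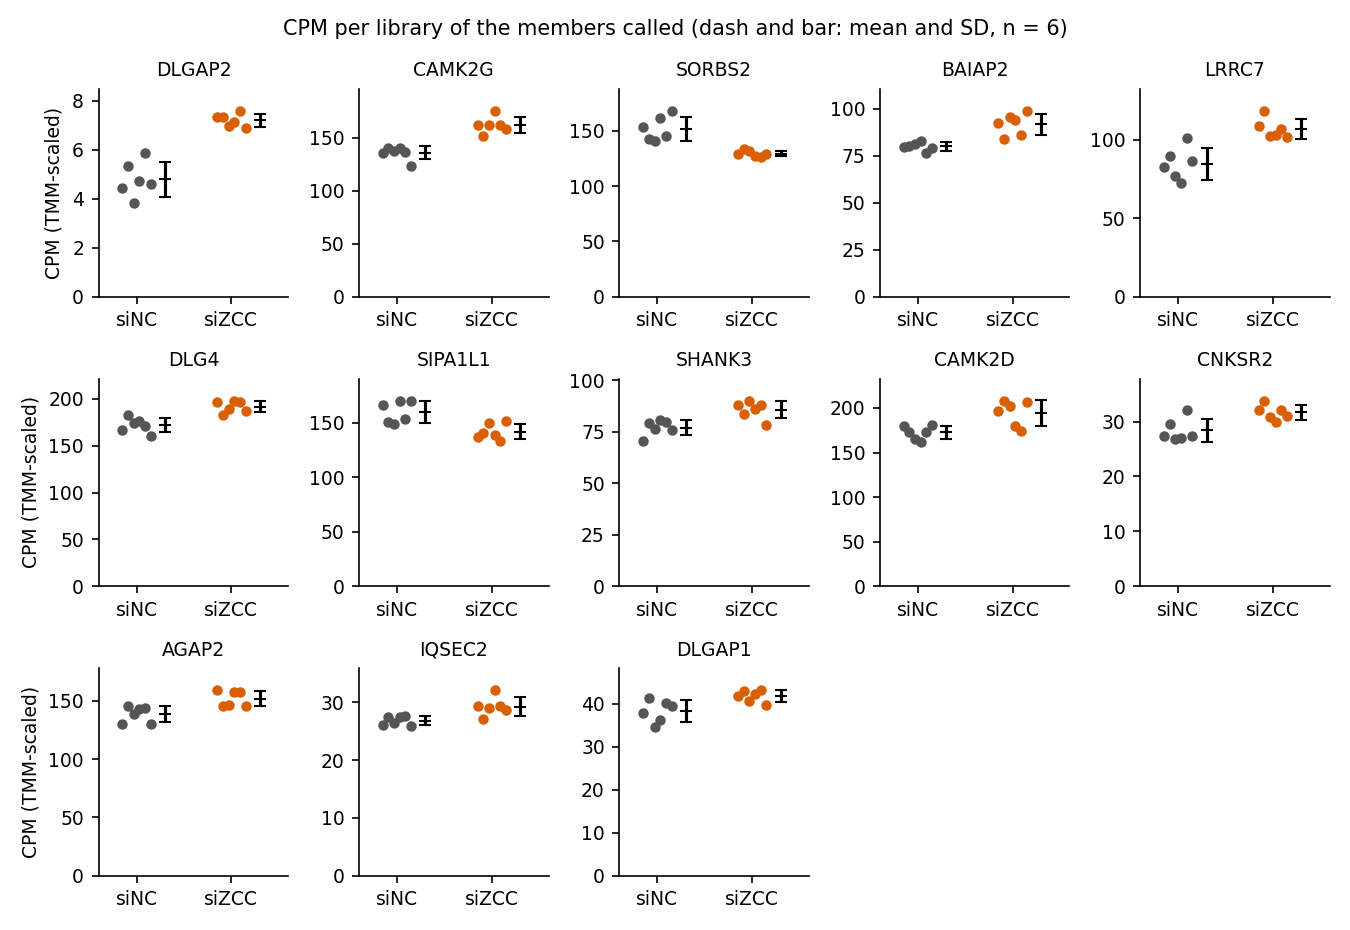
CPM of each library (points) for the 13 genes called, with the mean and SD of each group of 6 beside them, each panel starting at 0. The groups separate fully in DLGAP2, CAMK2G, SORBS2, BAIAP2, LRRC7 and DLG4 and overlap in the other 7 panels.

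Of the 7 regulators of small GTPases and associated kinases, 3 rose and 1 fell. That is 57.1% called, against 32% of all genes whose mean CPM reached 6.01, a difference that was not tested. With the GC and length adjustment 1 of the 7 was called higher and 1 lower. AGAP2, an Arf GTPase-activating protein also known as PIKE, had 130.1, 141.2 and 145.7 CPM in siNC and 145.3, 151.8 and 159.0 in siZCC (log2 fold change 0.13, SE 0.037, adjusted p 0.0176). IQSEC2, an Arf exchange factor on the X chromosome that is mutated in intellectual disability, had 25.9, 26.9 and 27.6 against 27.2, 29.1 and 32.1 CPM (0.12, SE 0.037, adjusted p 0.0236). CNKSR2, a scaffold of Ras signalling, had 26.8, 27.4 and 32.2 against 30.0, 31.6 and 33.8 CPM (0.16, SE 0.0447, adjusted p 0.0173). Groups overlapped in all 3, most in CNKSR2, where siNC replicate 5 reached into the siZCC range and 2 siZCC libraries lay above it. IQSEC2 was not called without siNC replicate 1 (0.0529) or siNC replicate 6 (0.0548). The GC and length adjustment ended the calls of IQSEC2 (0.04, adjusted p 0.304) and CNKSR2 (0.09, adjusted p 0.12) and left that of AGAP2 (0.09, adjusted p 0.0216).

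SIPA1L1, a Rap GTPase-activating protein of spines also called SPAR, fell. It had 148.7, 159.8 and 170.1 CPM in siNC and 133.5, 139.5 and 151.1 in siZCC, with a log2 fold change of -0.17 (SE 0.0419, adjusted p 0.00729). 4 siZCC libraries lay below every siNC library; siZCC replicates 3 and 6 did not. The exons of SIPA1L1 overlap an antisense gene, AC004974.1, over 19.1% of their length, and that gene had only 4 to 24 counts per library. The exons of AGAP2 overlap AGAP2-AS1 over 12.9%, at 65 to 152 counts per library. IQSEC1, an Arf exchange factor with the highest CPM of the members, had 199.5 to 219.3 CPM in siNC and 204.8 to 225.7 in siZCC (log2 fold change 0.06, SE 0.0338, adjusted p 0.196). TNIK, a kinase that binds Rap and Wnt pathway proteins, had 178.1 to 214.6 and 200.7 to 211.5 CPM (adjusted p 0.717). KALRN, which encodes kalirin, the Rac exchange factor of spines, had 102.8 to 156.2 and 125.2 to 143.3 CPM (adjusted p 0.81). Exons of KALRN overlap a gene on the same strand, AC022336.2, over 10.4% of their length, and that gene had 0 counts in each library. For TNIK and KALRN the siZCC values lay wholly within the siNC range.

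Among the 5 actin-linked and other adaptors, 2 rose and 1 fell, and these 3 separated the groups fully. The share called, 60.0% against 32% of all genes whose mean CPM reached 6.01, was not tested. LRRC7, or densin, binds CaM kinase II and alpha-actinin (chromosome 1, 69568398 to 70151945, plus strand). It had 72.5, 84.4 and 101.0 CPM in siNC and 102.1, 104.9 and 118.2 in siZCC, with a log2 fold change of 0.33 (SE 0.0629, adjusted p 0.00116). BAIAP2, known as IRSp53, which couples Rac and Cdc42 to actin and binds DLG4 and SHANK proteins (chromosome 17, 81035122 to 81117432, plus strand), had 76.5, 80.2 and 82.9 against 84.2, 93.3 and 98.8 CPM (0.2, SE 0.0374, adjusted p 0.00111). SORBS2, or ArgBP2, an adaptor of actin and Abl kinase signalling that is also strong in muscle (chromosome 4, 185585444 to 185956652, minus strand), had the largest fall of the 32. It went from 140.5, 149.4 and 167.8 CPM to 126.3, 129.3 and 133.4 CPM (-0.23, SE 0.0399, adjusted p 0.000624). In each of the 3 the exact permutation test gave p = 0.00216, a value that full separation fixes. The call of each held without any 1 of the 12 libraries and with the GC and length adjustment. The spinophilin PPP1R9B (146.2 to 156.0 CPM in siNC, 148.7 to 160.8 in siZCC) and its relative neurabin PPP1R9A (39.9 to 57.0 and 49.2 to 53.0), which bring protein phosphatase 1 to spines, were not called (adjusted p 0.474 and 0.596).

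Levels were then compared between paralogs as CPM per kb of exon, with exon lengths from GENCODE v29; the authors' annotation is not given, so these are approximate. No test was made of the shares, and pairs of paralogs were not tested against each other. Shares within a family depend on each other, since a higher share of any paralog lowers those of the rest. In siNC the widely expressed forms made up most of CaM kinase II RNA, CAMK2D 47.5% ± 2.12 and CAMK2G 40.5% ± 1.71, against 6.81% ± 0.682 for CAMK2B and 5.12% ± 0.454 for CAMK2A (SD, n = 6). In siZCC, CAMK2B was 5.6% ± 0.773 and CAMK2A 4.3% ± 0.451. The family sum was 48.2 to 50.7 CPM per kb in siNC and 53.8 to 56.3 in siZCC, without overlap. DLG4 led the DLG family at 48.9% ± 1.72 in siNC and 52.8% ± 1.76 in siZCC. The share of DLG3 went from 22.2% to 23.1% over the siNC libraries to 20.3% to 21.3% over the siZCC libraries. DLGAP4 held 70.9% ± 1.69 and 68.8% ± 0.964 of its family, and DLGAP2 1.31% ± 0.196 and 2.0% ± 0.0425.

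SHANK3 was the leading SHANK gene at 45.8% ± 1.26 in siNC and 48.5% ± 1.55 in siZCC, and SHANK1 was next at 33.1% ± 0.396 and 30.1% ± 1.38. SHANK1 lay between 32.5% and 33.5% in every siNC library and between 28.2% and 31.5% in every siZCC library. Its own level overlapped between the groups, at 51.5 to 60.8 CPM in siNC and 45.3 to 59.8 in siZCC, and it was not called. HOMER3 held 59.7% ± 2.38 and 60.5% ± 2.04 of HOMER RNA. IQSEC1 held 92.3% ± 0.198 and 91.9% ± 0.353 of the IQSEC pair. PPP1R9B held 88.9% ± 1.69 and 88.7% ± 0.444 of the neurabin and spinophilin pair. The order of the paralogs by mean level was the same in both groups in each family. DLG1 and DLG3, DLGAP1 and DLGAP3, and CAMK2A and CAMK2B are neighbours in that order whose shares came close: in siZCC they were 21.4% and 21.0%, 14.6% and 14.6%, and 4.3% and 5.6%. In single libraries the order could differ. CAMK2G exceeded CAMK2D in siZCC replicates 4 (46.2% against 43.6%) and 5 (44.4% against 43.9%).

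**Figure D4:**
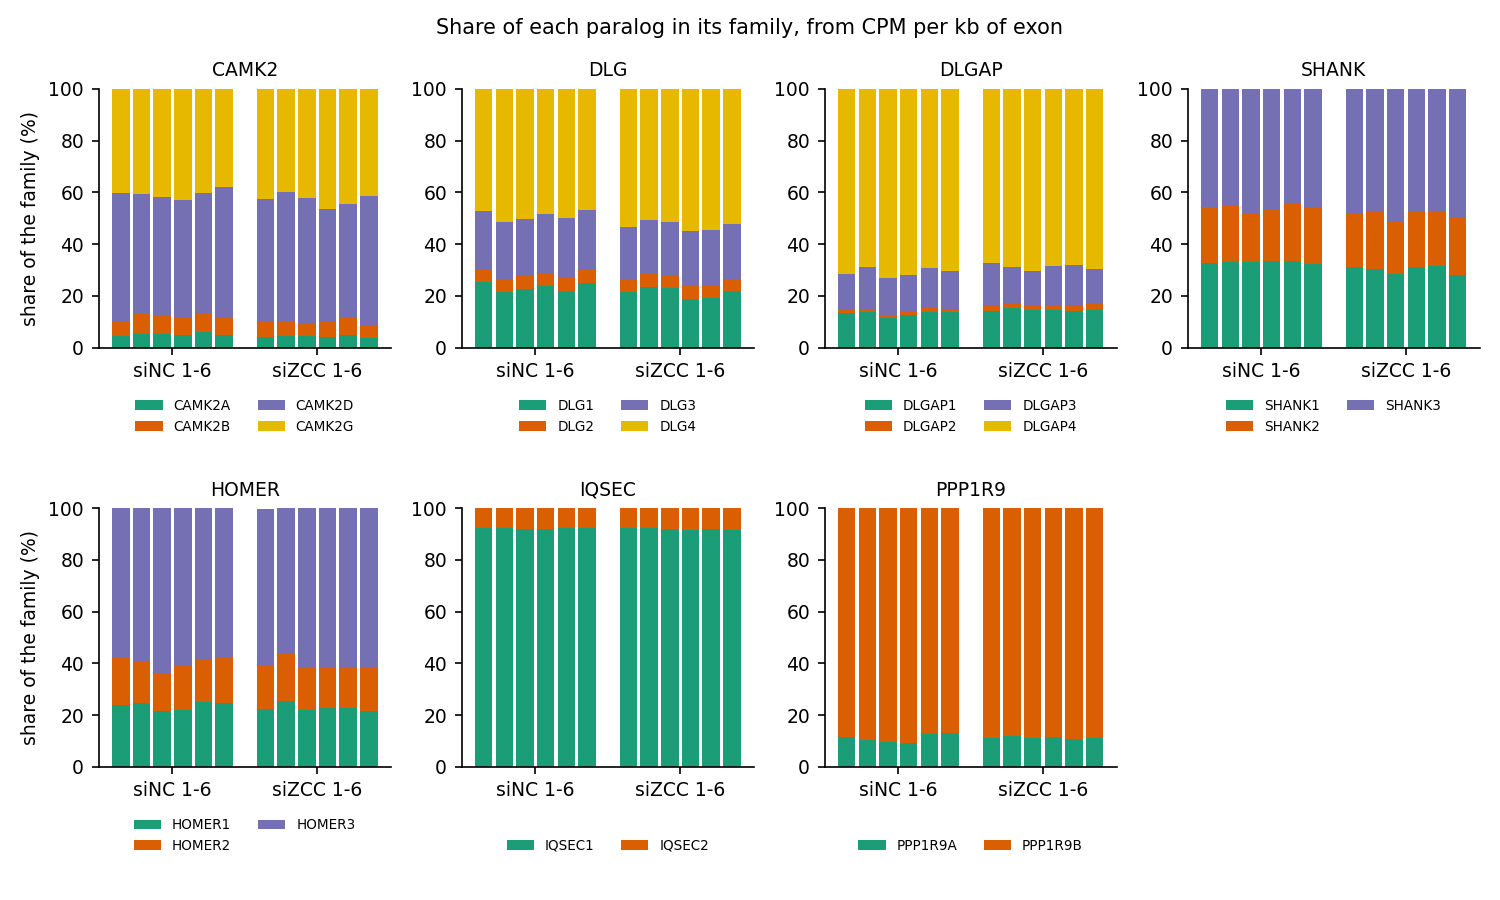
Share of each paralog in its family in each of the 12 libraries, in percent of the summed CPM per kb of exon. CAMK2D and CAMK2G fill most of their bar in each library, DLG4 takes 47.0% to 54.9% of its family, and the thin CAMK2A and CAMK2B bands are thinner on average in siZCC.

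Other genes of the postsynaptic machinery were read from 4 lists of genes outside the 32. Among 29 other scaffolds and adaptors 3 rose and 8 fell, or 37.9%, with a median log2 fold change of -0.03. NSMF, a messenger from synapse to nucleus, rose by 0.24 on the log2 scale (SE 0.0335) and LZTS3, a SHANK-binding protein, by 0.27 (SE 0.043). DLGAP5 fell by 0.49 (SE 0.0432); despite its name it is a mitotic spindle protein, and its CPM was 25.2 to 28.9 in siNC and 18.0 to 21.4 in siZCC. ANKS1B, an adaptor of the postsynaptic density, fell by 0.31 (SE 0.0398). With the GC and length adjustment 18 of this list were called, 4 higher and 14 lower.

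Among 23 other regulators of small GTPases 6 rose and 3 fell (39.1%, median 0.07). SIPA1L2, a paralog of SIPA1L1, rose by 0.18 (SE 0.0396), whereas SIPA1L1 fell; the difference between them was not tested. RASGRF2 fell by 0.46 (SE 0.111) and RAPGEF4 by 0.26 (SE 0.0575). The GC and length adjustment gave 5 higher and 6 lower in this list.

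Among 27 actin regulators of spines 8 rose and 3 fell (40.7%, median 0.0). ACTN2, the alpha-actinin that binds densin and CaM kinase II, had the largest rise of these lists, 0.81 (SE 0.0611), from 10.5 to 13.3 CPM over siNC to 18.7 to 21.9 CPM over siZCC. ACTN1, the alpha-actinin of stress fibres, fell by 0.32 (SE 0.0608) and synaptopodin (SYNPO) by 0.47 (SE 0.0507), while WASF3, an activator of actin branching, rose by 0.25 (SE 0.0355). With the adjustment 8 rose and 5 fell. Among 32 genes of calcium and calmodulin signalling 2 rose and 7 fell (28.1%, median -0.04). PDE1A and PRKCA rose by 0.27 (SE 0.051) and 0.14 (SE 0.0348). PPP1CA, a catalytic subunit of protein phosphatase 1, and CAMKK2 fell by 0.17 (SE 0.0323) and 0.13 (SE 0.0271). The adjusted p of the genes named from these lists ran from 3.47e-07 for ACTN2 to 0.00988 for PRKCA. The shares of the first 3 lists lay above the 32% of all genes whose mean CPM reached 6.01 and that of the last below it. The lists had no such floor, although every gene of the first list lay above it. In the later lists RASGRF1, BAIAP2L1 and several calcium and calmodulin genes, among them CAMK1G and RCAN2, lay under it. For those lists the sets are unlike, and their shares above the floor were not computed. No list was tested as a set.

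**Figure D5:**
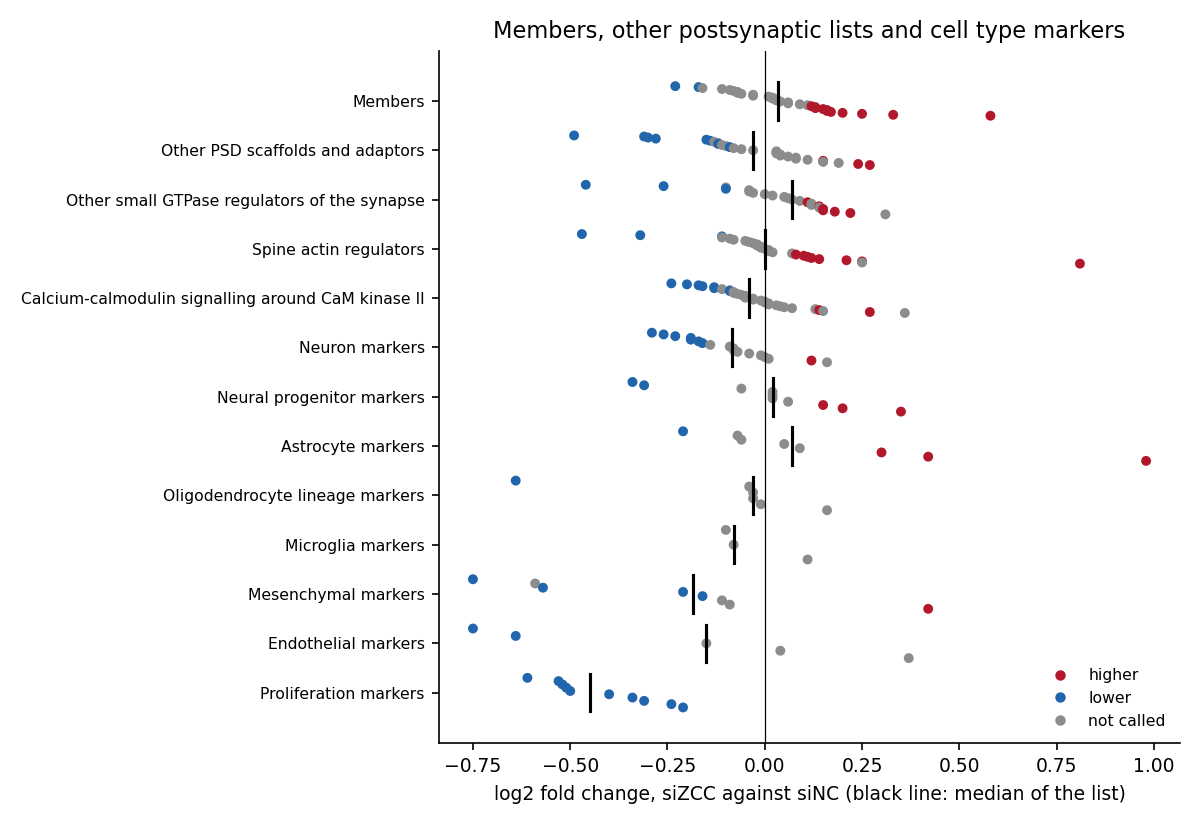
Log2 fold change of every gene kept (points) in the 32 members, the 4 other postsynaptic lists and 8 lists of cell type markers, with the list median as a black line. The proliferation markers all lie left of 0 with a median of -0.45, and the members have a median of 0.04.

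Markers of cell types moved as well. All 10 proliferation markers fell, their summed CPM going from 789.0 to 903.6 over siNC to 604.4 to 706.6 over siZCC. Of 18 neuron markers 1 rose and 7 fell, with a median of -0.09, in the opposite direction to most of the members called. Of 8 astrocyte markers 3 rose and 1 fell (sums 1637.3 to 1859.9 and 1704.2 to 2025.4 CPM), and of 8 mesenchymal markers 1 rose and 4 fell (473.0 to 815.1 and 357.8 to 563.3). Microglial markers were near 0: 5 of 8 were below the filter, and the other 3 summed to 1.21 to 2.35 CPM in siNC and 1.25 to 2.22 in siZCC. Of 10 progenitor markers 3 rose and 2 fell, of 8 oligodendrocyte lineage markers 0 rose and 1 fell, and of 6 endothelial markers 0 rose and 2 fell. The part of these shifts in the values of the members was not tested.

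The 13 genes called kept their direction in every alternative fit and with each library left out, including separate fits of the libraries with high IL1B and with low IL1B. With 3 libraries against 3, 10 members were called on the high side and 4 on the low side. Over all genes the high side gave 2043 calls and the low side 1602, against 5481 in the main fit. Shares of all genes called were not computed for these fits, so the 10 and 4 members are not read as a difference between the sides. DLGAP2 had log2 fold changes of 0.67 and 0.49 on the 2 sides, LRRC7 0.33 and 0.33, CAMK2G 0.31 and 0.19, and SORBS2 -0.24 and -0.22. AGAP2 had 0.19 and 0.07, IQSEC2 0.18 and 0.06, CNKSR2 0.17 and 0.15, DLGAP1 0.14 and 0.11, BAIAP2 0.18 and 0.22, and SIPA1L1 -0.2 and -0.15. DLG4 had 0.19 and 0.12, and SHANK3 0.18 and 0.13. Differences between the sides were not tested. NRGN, not called, had -0.04 (SE 0.0947) on the high side and -0.29 (SE 0.0797) on the low side, and SHANK1 0.05 (SE 0.0488) and -0.18 (SE 0.0735).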

How the data were processed

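The authors deposited raw counts (whole numbers) for 59653 gene symbols in 12 libraries, in 1 table. The submitters' processing notes list bcl2fastq 2.17, STAR 2.7.6a, featureCounts 2.0.1 and the build GRCh38, without roles; the labels' protocols name Qiazol lysis and a directional NEBNext kit. Annotation and strand setting are not given in the sources used here. The members and gene lists were chosen with earlier results of these data known.

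Counts were analysed in R 4.3.3 with edgeR 4.0.16: filterByExpr (24671 genes, about 0.0997 CPM), TMM scaling, quasi-likelihood test of siZCC against siNC, Benjamini-Hochberg adjustment over all genes kept, threshold 0.05. SE is the log2 fold change divided by the square root of F. Exact permutation tests (two-sided) of log2 CPM (prior count 2) used all 924 assignments. Their p-values are unadjusted, and full separation of the groups fixes p at 0.00216, so it adds nothing to that separation. Over the called members whose groups overlapped, p in this test ran from 0.00649 (AGAP2) to 0.0216 (CAMK2D). GENCODE v29 gave positions, lengths and GC content, with 92.0% of symbols found once. The biological coefficient of variation was 6.55%. Counts were also simulated for this comparison (24355 genes), with changes in randomly drawn genes of any abundance. Of 97 genes with a log2 change of 0.5, 75.3% were recovered, and of 98 with 0.25, 42.9%, with 5% of calls false. Far fewer genes changed there than were called in the real data, so these rates need not hold for the members.

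All 32 members are reported. Of each other list, the 2 called genes lowest in p in each direction are named, except 1 that is not reported here; CALM and marker genes are given as counts. Within groups, pairs of libraries differed by a chi-square per degree of freedom of 5.15 to 24.95, so none was a copy. Alternatives were DESeq2 1.42.0 size factors or upper quartile scaling, no filter or a mean count of 50, DESeq2's Wald test, limma 3.58.1 voom, the replicate block, 1 surrogate variable (sva 3.50.0), the IL1B division as a block or as separate fits, a 1.2-fold minimum, offsets for GC content and exon length (loess, span 0.4), thinning to the smallest total, and fits that omit each library in turn.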

Additional observations from a re-analysis of the deposited data

Results flagged for a closer look

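In 70 groups of 6 values (the 32 members and ZCCHC17 in log2 CPM, library totals and the mitochondrial share, in both groups), a lone extreme library, one whose gap to its neighbour passed Dixon's 95% critical value, was found 3 times; chance flags about 1 in 20 groups. CAMK2G was lowest in siNC replicate 6, at 6.95 against 7.09 to 7.13 in the other siNC libraries (gap 0.755 of the range). DLG3 was highest in siNC replicate 4, at 5.99 against 5.89 to 5.93 (gap 0.672). By depth, siNC replicate 4 was lowest, with 90755953 counts where the other siNC libraries had 109973707 to 120023356 (gap 0.657). With any 1 library omitted, CAMK2G kept a log2 fold change of 0.23 to 0.27 and its call, and DLG3 had -0.07 to -0.05 and was not called.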

How the results depend on the processing

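The members called, 13 in all, stayed between 12 and 14 with other scalings, filters, tests and covariates; without 1 library it ran from 11 to 14. The 1.2-fold minimum left 1 member, 349 for all genes called against 5481, 3 genes of the other postsynaptic lists against 40 and 11 markers against 35, a stricter test by construction. Separate fits used 3 libraries against 3: the libraries with high IL1B gave 2043 genes, 23 of the other lists and 21 markers, and those with low IL1B 4 members, 1602 genes, 13 of the other lists and 21 markers. No pairing by replicate number was seen: siNC and siZCC libraries of one number had deviations with r from -0.08 to 0.02, and for 0 of 6 numbers was the same-numbered library the best match. A replicate block gave 13 members and 4902 genes, and left ZCCHC17 at -2.51. Leaving out 1 library gave 4484 to 5626 genes, 36 to 43 of the other lists, 32 to 34 markers and -2.53 to -2.49 for ZCCHC17.

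Sign changes were limited to members near 0 that were not called; the cause was not tested. DLG2 turned to -0.00182 with upper quartile scaling, -0.02 in low IL1B libraries and -0.04 with the GC and length adjustment. That adjustment also gave HOMER2 -0.02, KALRN -0.01 and PPP1R9B -0.03. DLGAP3 and SHANK1 were 0.07 and 0.05 in high IL1B libraries, and KALRN -0.05 in low ones. With 1 library left out, DLG2 reached -0.01 to 0.02, DLGAP3 -0.08 to 0.02, HOMER2 -0.02 to 0.04, KALRN -0.03 to 0.09 and TNIK -0.00929 to 0.04. Upper quartile scaling called 46.4% of all called genes higher, the GC and length adjustment 46.8% and TMM 51.4%. Thinning to the smallest total also gave 13 members, but 10 higher and 3 lower. It lost the call of DLGAP1 (adjusted p 0.0502) and added DLG3 on the lower side (adjusted p 0.0421). The other postsynaptic lists had 19 genes higher and 21 lower, and 19 and 33 with the GC and length adjustment.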

Other observations

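Of the 32 members, 20 (62.5%) had a larger coefficient of variation in siNC than in siZCC, against 51.8% of the 12245 genes whose mean CPM reached 6.01, a set with no upper limit that is not matched to the members in abundance. KALRN varied by 15.6% in siNC and 5.37% in siZCC, PPP1R9A by 14.9% and 2.99%, DLGAP2 by 14.8% and 3.5%, and TNIK by 6.66% and 1.9%. The other 12 members went the other way, among them BAIAP2 with 2.71% and 6.14%, DLGAP3 with 7.77% and 12.5%, CAMK2D with 4.51% and 7.46%, and SHANK1 with 6.76% and 9.78%. The siNC library with the lowest value was replicate 3 for 13 members (40.6%, against 21.9% of those 12245 genes), and the one with the highest value was replicate 5 for 12 (37.5%, against 19.0%). Within siZCC, replicate 6 was lowest for 13 members (40.6%, against 16.0%).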
